A study of Mus musculus with 3 samples.

Results

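The skeletal muscle contractile and metabolic genes described here are 34 named genes of the sarcomere, of calcium handling and of energy supply in muscle fibres, matched by symbol among the 33696 features of 2 tendon libraries, where each had 1 match. No measured value entered their choice. They comprise 7 genes of the thin filament, 9 of the thick filament, 5 of the Z-disc, 7 of calcium handling and 6 of metabolism. The series asks how sensory nerves bear on tendon degeneration, and all its mice were C57BL/6. In the neurectomy group the sural nerve, a sensory nerve to the hind foot, was transected 1 week ahead of 4 weeks in which the foot was fixed in dorsiflexion, a model of tendon overstrain. In the sham group the surgery exposed the nerve, and the foot was then fixed for the same 4 weeks. Achilles tendons of 5 mice per group were digested with enzymes and passed through droplet single-cell RNA sequencing on the Chromium system, 1 library per group. The labels state neither the age of these mice nor how their cells were pooled. A library of 18 dorsal root ganglia (DRG) from 6 mice was made 4 weeks after a viral reporter was injected at the Achilles tendon of mice aged 4 weeks; the labels differ on the virus (AAV or lentivirus) and on whether the ganglia came from 1 side or both.

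Skeletal muscle fibres shorten when myosin of the thick filament pulls on actin of the thin filament, a step that the troponin and tropomyosin proteins switch on when calcium leaves the sarcoplasmic reticulum. Fast and slow fibres use different versions of many of these proteins, and phosphocreatine, glycogen and oxygen stores supply the energy. Muscle fibres attach to the tendon, so a tendon dissection can carry muscle with it, and RNA set free during digestion can be captured in droplets that hold other cells.

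Each droplet has its own barcode, and captured transcripts carry unique molecular identifiers (UMIs), so that copies of 1 molecule count once. Levels are UMIs of a gene in CPM, its share of all UMIs of the barcodes named on the usual scale of that name (a share of 32.9% is 328679 CPM), so they count molecules and are not scaled by gene length. With a single library in each group, differences have no replicate check and were not tested. Intervals in parentheses are exact 95% intervals that cover only the error of counting. There were 25067 barcodes after neurectomy (79750679 UMIs in all, median 1212) and 32951 in the sham library (133570956 UMIs, median 1065). The filters kept 21992 and 25306 barcodes, and marker genes assigned 8051 and 7995 of these to classes other than muscle, leaving 63.3% and 68.4% in no class. The libraries shared 1001 barcode sequences. Without these, the muscle share ratio given below was 6.504, the Acta1 ratio in other classes 19.5 and the summed ratio 1.25. Y-linked genes had 39 UMIs in the neurectomy and 6366 in the sham library, and Xist had 55528 and 61571. The labels do not give the sex of the mice, and sex and operation cannot be told apart.

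For 26 of the 34 genes RefSeq (mouse build GRCm38.p6) gave a promoter. Where a gene had several, the first listed was printed. Both mm10 and GRCm39 appear in the submitters' processing notes with no role, so the positions below are those of RefSeq only. The 250 bases before the annotated start are printed for 3 members that the results turn on: Acta1 (skeletal muscle actin, ENSMUSG00000031972, chr8:123894776-123895025, minus strand), Ckm (muscle creatine kinase, ENSMUSG00000030399, chr7:19410844-19411093, plus strand), whose levels differed between the libraries in the same direction in each class compared, and Tpm1 (tropomyosin 1, ENSMUSG00000032366, chr9:67049214-67049463, minus strand), whose levels did not. Capitals mark CAGCTG, an E-box of the kind bound by the MyoD family of muscle factors, the CArG box bound by serum response factor, the TATA motif (TATAAA), and the motif of MEF2 factors.
Acta1: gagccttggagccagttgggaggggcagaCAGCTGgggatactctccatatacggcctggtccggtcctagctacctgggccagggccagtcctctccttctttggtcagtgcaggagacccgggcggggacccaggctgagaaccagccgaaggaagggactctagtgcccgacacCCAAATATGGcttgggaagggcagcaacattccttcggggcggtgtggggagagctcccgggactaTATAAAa
Ckm: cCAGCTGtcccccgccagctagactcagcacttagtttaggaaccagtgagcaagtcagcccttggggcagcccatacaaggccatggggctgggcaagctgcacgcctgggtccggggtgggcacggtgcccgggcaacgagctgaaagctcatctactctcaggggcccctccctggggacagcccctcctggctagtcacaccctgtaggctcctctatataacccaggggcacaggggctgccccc
Tpm1: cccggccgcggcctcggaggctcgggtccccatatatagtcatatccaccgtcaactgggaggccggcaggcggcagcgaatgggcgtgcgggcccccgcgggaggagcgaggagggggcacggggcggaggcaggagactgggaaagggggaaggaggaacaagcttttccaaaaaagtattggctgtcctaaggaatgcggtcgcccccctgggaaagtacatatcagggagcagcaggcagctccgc
Counted from the annotated start, Acta1 held the E-box at -221, the CArG box at -73 and the TATA motif at -7. Ckm held the E-box at -249. The Tpm1 window held none of the 4 motifs. Both strands were searched, and a MEF2 motif can include the TATA motif. The E-box was in the promoter of 13 of the 26 members (50%) and of 14.7% of all 27025 genes. The CArG box was in 3 members (11.5%) against 1.62% of all genes, and the MEF2 motif in 6 (23.1%) against 3.42%. The TATA motif was in 4 members (15.4%) against 14.3% of all genes. A match describes letters in the window only.

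Muscle barcodes were found with 32 other muscle genes, none of them a member: a barcode needed UMIs of at least 3 of these, making up at least 0.5% of its UMIs, and a lead over every other class. The neurectomy library held 29 muscle barcodes, which is 0.132% of its barcodes (0.0883 to 0.189%). The sham library held 5, or 0.0198% (0.00642 to 0.0461%). The share was 6.67 times higher after neurectomy (2.55 to 22.1). With the gate raised to 1% of UMIs it was 3.68 times higher (16 against 5 barcodes), and without the gene minimum 10.5 times (56 against 7). The 34 members, which had no part in the choice, made up 32.9% of the UMIs of the neurectomy muscle barcodes and 30.7% of those of the sham muscle barcodes. By barcode the members' share ran from 10% through a median of 34.5% to 39.5% in the neurectomy library, and from 15.8% through 27.9% to 35.1% in the sham library. In barcodes of other classes the median share was 0.0455% after neurectomy and 0% in the sham library. The label of muscle thus matched genes that did not define it.

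Muscle barcodes were small in gene number. Their medians were 620 genes and 1596 UMIs after neurectomy, and 613 genes and 1238 UMIs in the sham library, against 1006 and 1012 genes in other classes. Malat1, a transcript that stays in the nucleus, had a median of 0% of UMIs in the muscle barcodes of both libraries, against 1.94% and 1.75% in other classes. Mitochondrial transcripts had medians of 1.07% and 0.485%, against 3.36% and 3.41%. Markers of most other cells were scarce there, and those of mural, Schwann and mast cells were at 0 in the muscle barcodes of both libraries. The tenocyte markers had 56 UMIs after neurectomy and 4 in the sham library, and those of the synovial lining 23 and 2. Tenocyte markers reached 14815 CPM in 1 neurectomy muscle barcode, so not every muscle barcode was free of other cells' RNA. Whether a muscle barcode held a whole fibre, a fragment or free RNA was not tested.

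Thin-filament genes gave 58.5% of the member UMIs in neurectomy muscle barcodes and 59.9% in sham ones, and thick-filament genes 23.2% and 20.7%. Metabolic genes gave 9.50% and 10.5%, calcium genes 4.51% and 5.21%, and Z-disc genes 4.21% and 3.67%. The order of the 5 roles was the same in both libraries: thin filament, thick filament, metabolism, calcium and Z-disc.

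Acta1, the actin of the skeletal thin filament, had 63867 CPM in neurectomy muscle barcodes and 55620 in sham ones, a ratio of 1.15 (1.04 to 1.27), and every muscle barcode of both libraries held it. Acta1 shares much of its coding sequence with the other actins, so reads could be split among them. The 5 sham muscle barcodes, from the deepest to the shallowest, held 214, 105, 63, 56 and 45 Acta1 UMIs among 3207, 2186, 1238, 1105 and 948 in all. The fast troponins, which set the thin filament's response to calcium, were close in level. Tnnt3, which ties troponin to tropomyosin, had 28197 and 32013 CPM. Tnnc2, the calcium sensor, had 28997 and 29134 CPM. Tnni2, the inhibitory subunit, had 21525 and 20267 CPM. The intervals of the ratios of all 3 troponins included 1.

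Tropomyosins lie along actin and cover its myosin sites. Tpm1 had 46414 CPM after neurectomy and 37195 CPM in the sham library, a ratio of 1.25 (1.11 to 1.41). Tpm2, the beta tropomyosin, had 2636 CPM in neurectomy muscle barcodes and 8521 in sham ones, a ratio of 0.309 (0.232 to 0.415). It was found in 21 of 29 and 5 of 5 muscle barcodes, with medians per barcode of 926 and 9978 CPM, but the highest neurectomy barcode, at 13498 CPM, was within the sham range of 2287 to 13713. Neb, the giant protein along the thin filament, had 800 and 1382 CPM, with 44 and 12 UMIs.

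Of the heavy chains, the motors of the thick filament, Myh4 encodes the fastest type (2B), Myh1 the 2X type, Myh2 the 2A type and Myh7 the slow type. Myh4 had 335 of the 345 heavy-chain UMIs in neurectomy muscle barcodes (97.1%, 94.7 to 98.6%), Myh1 had 10, and Myh2 and Myh7 had 0 (upper bound 1.06% each). In the sham library Myh4 had 15 of 25 (60%, 38.7 to 78.9%), Myh1 had 9, Myh2 had 1 and Myh7 had 0. By barcode, 28 of the 29 in the neurectomy library held Myh4 and 2 held Myh1. Among the 5 sham muscle barcodes, 2 held Myh4, 2 others held Myh1 and 1 held Myh2, so no sham muscle barcode held more than 1 heavy chain. Myh4 had 6090 against 1727 CPM, a ratio of 3.53 (2.11 to 6.37). Myh1 had 182 against 1036 CPM, from 10 and 9 UMIs. The heavy-chain genes are similar in coding sequence, so reads shared among them could be split or lost in counting. With 5 sham muscle barcodes, fibre type and library cannot be told apart.

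The fast light chains were abundant in both. Mylpf, the regulatory light chain, had 37924 and 32243 CPM, and Myl1, the essential light chain, had 29343 and 25104 CPM. Ttn, the giant spring that spans the sarcomere, had 1527 and 1036 CPM. Mybpc2, the fast myosin-binding protein C, had 1036 and 1842 CPM, and the slow version Mybpc1 had 13 and 6 UMIs.

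In the Z-disc, which anchors thin filaments, Actn3, the actinin of fast fibres, had 4236 and 3109 CPM, and Actn2, the actinin of all fibres, had only 2 and 3 UMIs. Tcap, which caps titin, had 4981 and 3800 CPM. Myoz1, which binds calcineurin there, had 3872 and 3570 CPM. Ldb3, a scaffold, had 39 and 4 UMIs. Apart from Actn2, whose counts were at most 3, the intervals of the Z-disc ratios all included 1.

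Among the calcium genes, Pvalb, the buffer that speeds relaxation of fast fibres, had 9963 and 8521 CPM. Atp2a1, the pump that returns calcium to the reticulum in fast fibres, had 3618 and 5873 CPM, a ratio of 0.616 (0.451 to 0.855). Trdn, which links the release channel to its calcium store, had 35 and 8 UMIs. Ryr1, the release channel, had 14 and 3 UMIs, Cacna1s, its voltage sensor, had 8 and 3, and Casq1, the fast calcium-storage protein, had 12 and 0. Casq2, the cardiac and slow version, was at 0 in the muscle barcodes of both libraries, which allows up to 54.5 CPM after neurectomy and 345 CPM in the sham library at 3 counts.

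Of the metabolic genes, Ckm, which regenerates ATP from phosphocreatine, had 17198 and 17043 CPM. Eno3, the muscle enolase, had 5963 and 4952 CPM, and Pgam2, the muscle phosphoglycerate mutase, had 4236 and 3685 CPM. Pygm, which releases glucose units from glycogen, had 1054 and 921 CPM. Cox6a2, a muscle subunit of cytochrome oxidase, had 2382 and 4030 CPM, a ratio of 0.591 (0.404 to 0.884). Mb, which stores oxygen, had 400 and 1612 CPM, a ratio of 0.248 (0.121 to 0.524) from 22 and 14 UMIs, and it was found in 5 of 29 and 3 of 5 muscle barcodes. Mb was too sparse for the comparison below, and Cox6a2 stayed within 2-fold.

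Among genes with at least 50 UMIs over both libraries and at least 10 CPM in the higher one, 22 members entered the comparison of muscle barcodes. At 2-fold, 1 member was higher after neurectomy (Myh4), against 9.69% of all 196 genes that entered, and 1 was lower (Tpm2), against 3.57% of all genes. The members' median log2 ratio was 0.20, and that of all genes -0.05. The other 12 members had fewer than 50 UMIs over both libraries, and of these Myh7 and Casq2 were at 0 in both.

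**Figure D1:**
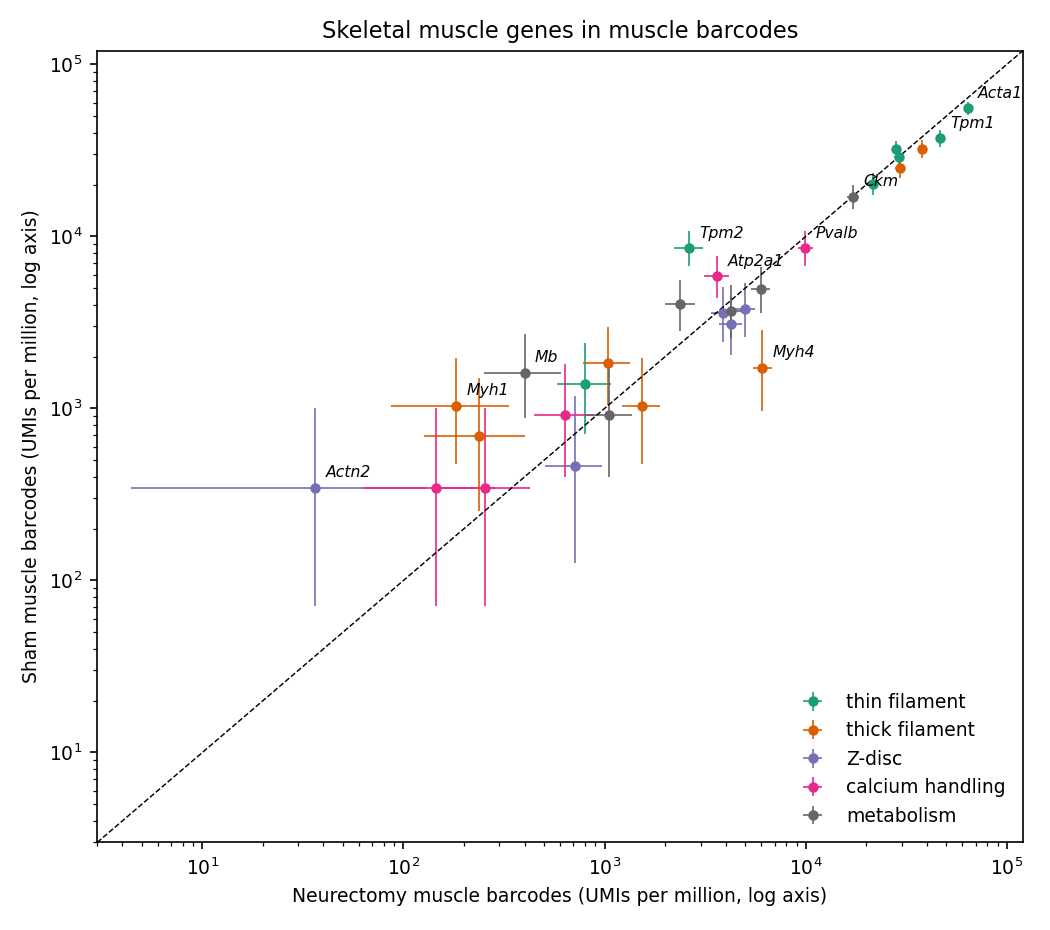
Levels of the members in muscle barcodes of the neurectomy library (x axis, 29 barcodes) and of the sham library (y axis, 5 barcodes), in CPM on log axes, coloured by role, with exact 95% Poisson intervals; members at 0 in either library are not drawn. Most points lie near the dashed line of equal level, Myh4 (6090 against 1727) lies below it and Tpm2 (2636 against 8521) above it.

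Other muscle genes from lists chosen for the tissue and operation were mostly sparse in or absent from the muscle barcodes. Of 8 slow-fibre genes, 6 were at 0 in both libraries, among them Tnnt1, Tnni1 and Tnnc1, the slow troponins. Of 10 genes linked to denervation or to embryonic muscle, none exceeded 3 UMIs in either library, and Myog, Chrng, Myh3 and Myh8 were at 0. Of 7 neuromuscular junction genes none exceeded 2 UMIs, and of 6 genes of the muscle-tendon junction none exceeded 3. Among 8 atrophy genes, Trim63, a ubiquitin ligase of muscle wasting, had 636 CPM from 35 UMIs after neurectomy and 691 CPM from 6 UMIs in the sham library, a ratio of 0.921 (0.383 to 2.68), and Fbxo32, its partner ligase, had 9 and 2 UMIs. Mt1, a metallothionein, was the only gene of these lists to enter, with 54 and 3 UMIs and a ratio of 2.84 (0.922 to 14.2). Mt1 was thus past 2-fold, as were 9.69% of all genes in that direction, with an interval that included 1. In other classes Col22a1, the collagen of the muscle-tendon junction, had 42.6 against 16.4 CPM (2.59, 2.37 to 2.84).

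Outside the muscle barcodes, Acta1, Ckm, Mylpf, Tnnc2, Tnnt3 and Tnni2 were higher after neurectomy in each of the 11 classes compared. Tpm1 and Eno3 differed in direction between classes, and Tpm2 was higher after neurectomy in only 1 of the 11. The barcodes of other classes held 14976 member UMIs after neurectomy and 18397 in the sham library. Their summed level was 497 against 392 CPM, a ratio of 1.27 (1.24 to 1.30), and without Tpm1 and Tpm2, which held most of these UMIs, it was 240 against 61.6 CPM, a ratio of 3.89 (3.73 to 4.06). The muscle barcodes, which also were more frequent after neurectomy, carried 328679 and 307462 CPM of the same genes. Whether the UMIs in other classes came from the muscle barcodes' source was not tested.

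The direction of the sum of all 34 turned with the depth minimum: among barcodes of at least 5000 UMIs the ratio was 0.878. Classes differed in depth, so depth and class mix were not separated there. Gated tenocytes, the cells of tendon that build its collagen, were the deepest of the 11 classes compared, with medians of 12636 and 10242 UMIs. They had 386 CPM of the members after neurectomy and 487 in the sham library (ratio 0.792, 0.753 to 0.834). Without the 2 tropomyosins they had 92.9 and 67.4 CPM (ratio 1.38, 1.23 to 1.55). Mural cells, the contractile cells around vessels, had 2313 and 2969 CPM (ratio 0.779, 0.740 to 0.819), and 418 and 233 CPM without the tropomyosins (1.79, 1.56 to 2.05). The other 9 classes compared had ratios above 1 on both sums. Lymphatic endothelium had the highest ratio without the tropomyosins, 10.5 (9.04 to 12.3), from 371 and 35.3 CPM.

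**Figure D2:**
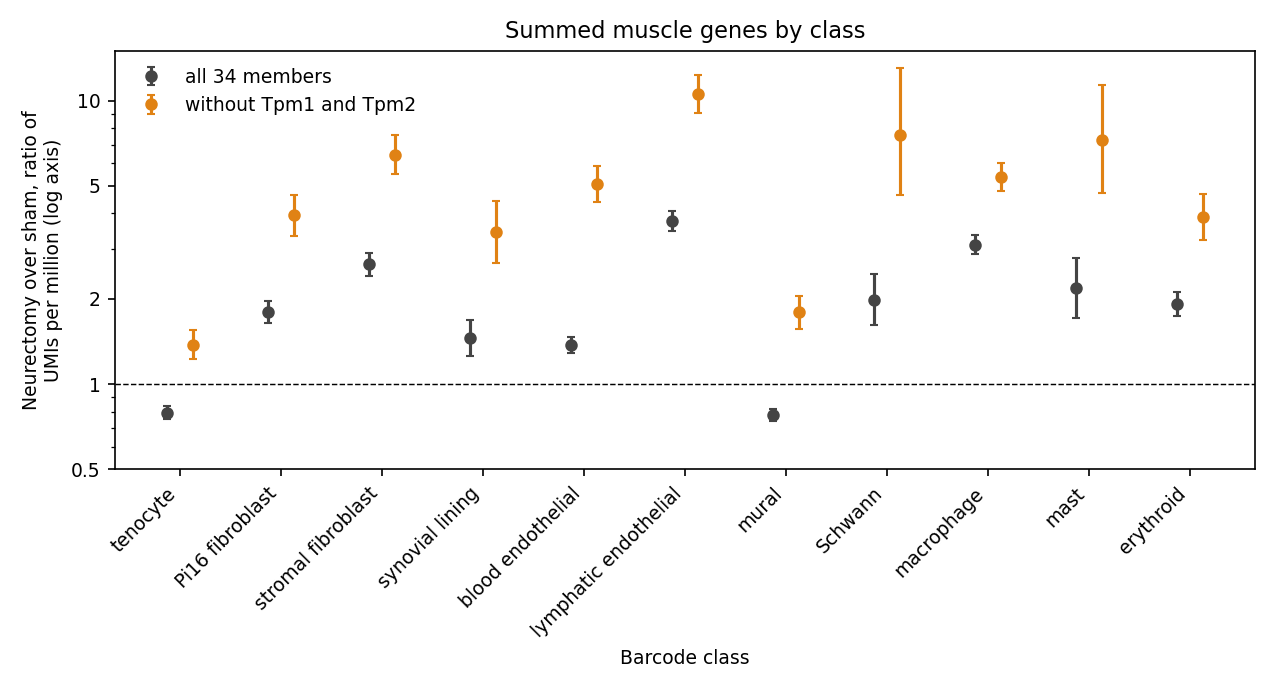
Ratio of the neurectomy to the sham library (y axis, log scale) of the summed members' CPM, in each of 11 barcode classes (x axis), for all 34 genes and without Tpm1 and Tpm2; bars are exact 95% conditional intervals. With all 34 genes tenocytes and mural cells lie below 1, at 0.792 and 0.779, and without the tropomyosins every class lies above 1, from 1.38 to 10.5.

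Role by role, the thick-filament sum in other classes was 62.6 against 10.2 CPM, a ratio of 6.16 (5.57 to 6.83). The calcium genes had 18.4 against 5.35 CPM (3.44, 2.96 to 4.01), the Z-disc genes 12.4 against 5.52 (2.25, 1.91 to 2.64), and the metabolic genes 43.2 against 28.2 (1.53, 1.42 to 1.65). The thin filament, which includes the tropomyosins, had 361 against 343 CPM (1.05, 1.03 to 1.08). The thick filament was thus furthest apart of the 5 roles, and the thin filament least.

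Of the 34 members, 10 passed the filter in the other classes together. At 2-fold, 7 of the 10 were higher after neurectomy (Acta1, Tnnc2, Ckm, Mylpf, Tnnt3, Tnni2 and Myl1), against 0.551% of all 9808 genes that entered, and 1 was lower (Tpm2), against 0.367%. Tpm1 and Eno3 were neither. The members' median log2 ratio was 2.41, and that of all genes 0.01. All 7 had under 10 CPM in the sham library and so passed the filter through the neurectomy library alone, which selects for the difference counted, and the count and median are a description only. The same holds for counts by class where a member is low in the sham library. With at least 10 UMIs and no CPM minimum, 21 of 31 members were higher, against 5.14% of all genes, and 2 were lower, Tpm2 and Myh1, against 2.77%.

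Acta1 had 37.9 CPM in other classes after neurectomy and 2.09 CPM in the sham library, from 1143 and 98 UMIs, a ratio of 18.2 (14.8 to 22.6). Over the 11 classes compared it ran from 8.09 CPM in tenocytes through a median of 53.0 to 73.4 in mast cells after neurectomy. In the sham library it ran from 0 in the synovial lining through 1.96 to 5.44 CPM in barcodes with haemoglobin transcripts, called erythroid here. The lowest neurectomy class was thus above the highest sham class, and the interval of the ratio lay above 1 in 11 of 11 classes. The share of barcodes with an Acta1 UMI was 11.1% against 0.976%.

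Mylpf had 28.6 against 2.79 CPM, a ratio of 10.2 (8.51 to 12.4). Its range over classes was 5.45 to 56.8 CPM after neurectomy, with the lowest value in tenocytes and the highest in lymphatic endothelium, and 0 to 9.39 CPM in the sham library, where blood endothelium was highest. Tnnc2 had 20.2 against 0.937 CPM, a ratio of 21.5 (15.85 to 29.96), with class ranges of 4.22 to 62.1 and 0 to 2.25 CPM. The class ranges overlapped for Mylpf and did not for Tnnc2, and both had the interval above 1 in 11 of 11 classes.

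Tnnt3 had 25.3 against 4.22 CPM, a ratio of 6.00 (5.12 to 7.05). Its classes ran from 6.51 CPM in tenocytes to 43.1 in stromal fibroblasts after neurectomy, and from 0 in Schwann cells to 9.92 CPM in mast cells in the sham library. Tnni2 had 15.8 against 3.39 CPM (4.68, 3.90 to 5.63), with classes from 2.64 to 39.5 and from 0 to 9.66 CPM. The sham maximum of Tnni2 was in macrophages, where the ratio was 2.11 (1.56 to 2.87) from 100 and 79 UMIs. In Schwann cells Tnni2 had 9 UMIs against 0, at least 2.08-fold higher when the sham 0 is set at 3 counts. Myl1 had 20.0 against 4.45 CPM (4.50, 3.84 to 5.29), with classes from 3.52 to 45.2 and from 0 to 54.8 CPM. The sham maximum of Myl1 was in mural cells, which alone of the 11 classes had a ratio below 1 (0.772).

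Tpm1 had 216 CPM after neurectomy and 241 CPM in the sham library, a ratio of 0.894 (0.867 to 0.922). It was highest in mural cells, at 1186 and 1541 CPM, and lowest in Pi16 fibroblasts after neurectomy (98.1 CPM) and in macrophages in the sham library (66.4 CPM). Its ratio was above 1 in 7 of 11 classes, with the interval above 1 in 5 and below 1 in 3, so the direction of the pooled value was not that of most classes. With the sham class sizes given to both libraries the ratio was 1.01, and without barcodes holding any UMI of the 32 muscle marker genes it was 1.11, so the call of a lower Tpm1 turned with either.

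Tpm2 had 41.9 against 88.9 CPM, a ratio of 0.471 (0.442 to 0.502), and was again highest in mural cells, at 709 and 1195 CPM. Its interval lay below 1 in 3 classes and above 1 in none. Tropomyosins 1 and 2 are also made by smooth muscle and many other cells. Eno3 had 16.0 against 19.0 CPM (0.840, 0.750 to 0.939) and was highest in tenocytes, at 35.0 and 52.2 CPM; when a class needed a lead of 3 times over the next, its ratio was 1.38. Pygm had 7.87 against 5.67 CPM (1.39, 1.16 to 1.66) and was highest in mural cells, at 20.0 and 23.4 CPM.

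**Figure D3:**
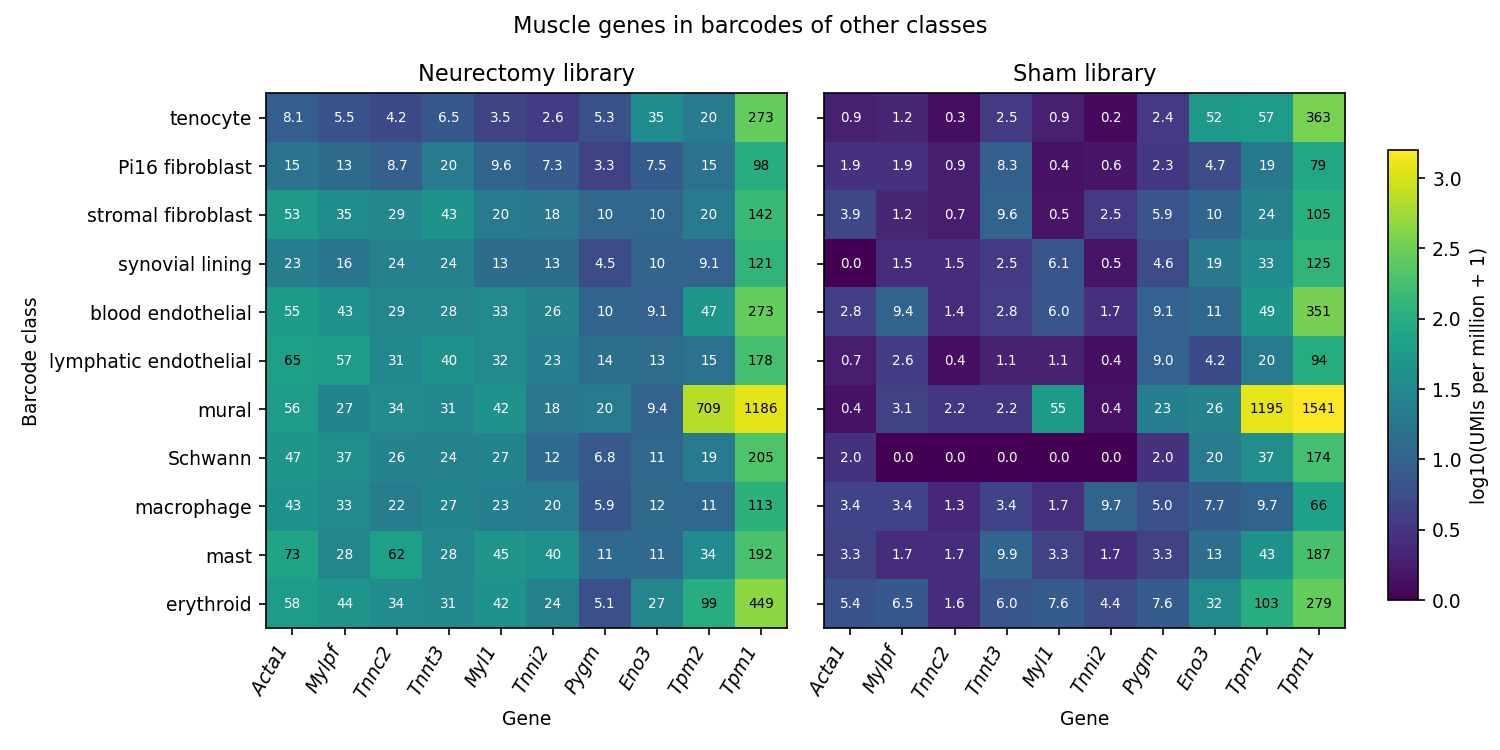
Levels in CPM (printed in each cell, coloured as log10 of the level plus 1) of the 10 members with the most UMIs outside muscle barcodes (x axis), by barcode class (y axis), in the neurectomy library (left) and the sham library (right). The first 6 genes are at 2.6 to 73 in every class after neurectomy and mostly under 10 in the sham library, with Myl1 in sham mural cells (55) as an exception, and Tpm1 and Tpm2 peak in mural cells of both.

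The other members were sparser outside muscle. Ckm had 11.9 against 0.596 CPM, a ratio of 20.0 (13.6 to 30.5), with classes from 2.82 to 22.6 CPM after neurectomy and from 0.103 to 2.18 CPM in the sham library. Pvalb had 7.70 against 0.170 CPM, from 232 and 8 UMIs (45.2, 22.6 to 106). Myh4 had 6.44 against 0.192 CPM, from 194 and 9 UMIs (33.6, 17.3 to 74.6). Actn3 had 110 and 13 UMIs (13.2, 7.40 to 25.6). Pvalb and Myh4 had the highest ratios of all members with UMIs in both libraries.

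Atp2a1 (151 and 32 UMIs, ratio 7.36), Mybpc2 (32 and 7, 7.13), Myoz1 (82 and 21, 6.09), Pgam2 (67 and 22, 4.75), Mybpc1 (58 and 22, 4.11), Tcap (93 and 38, 3.82), Cox6a2 (67 and 34, 3.07), Trdn (19 and 10, 2.96), Ttn (131 and 74, 2.76), Neb (114 and 80, 2.22), Casq1 (37 and 26, 2.22) and Mb (90 and 83, 1.69) were higher with intervals above 1. Cacna1s had 9 UMIs after neurectomy and 0 in the sham library. Ryr1 (34 and 43, 1.23), Casq2 (72 and 132, 0.850), Ldb3 (68 and 141, 0.752) and Actn2 (20 and 46, 0.678) had intervals that included 1. Myh1 had 3 UMIs after neurectomy and 19 in the sham library, a ratio of 0.246 (0.0467 to 0.836), of which 11 lay in 1 sham barcode. Myh2 had 3 and 3 UMIs and Myh7 had 1 and 3.

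Class by class, the count of members at least 2-fold higher after neurectomy was set against all genes that entered. It was 9 of 12 in lymphatic endothelium (1.96% of all genes higher, 0.409% lower), 7 of 11 in stromal fibroblasts (2.04% and 1.37%), 7 of 10 in macrophages (2.52% and 0.767%) and 6 of 9 in blood endothelium (1.63% and 0.442%). It was 3 of 5 in Pi16 fibroblasts, fibroblasts of connective-tissue layers (1.07% and 0.806%), and 3 of 6 in erythroid barcodes (4.6% and 2.35%). It was 0 of 3 in tenocytes (0.855%), 0 of 2 in the synovial lining (2.35%), 0 of 7 in mural cells (2.28%), and 0 of 1 in Schwann cells (5.43% and 3.8%) and in mast cells (9.38% and 9.71%). A count of 0 here does not mean that the members were level, because few passed the filter. Acta1 did not enter in any of these classes. It had 48 and 1 UMIs in mural cells, and 8.09 against 0.923 CPM in tenocytes. Members at least 2-fold lower were Tpm2 in tenocytes (0.641% of all genes) and in the synovial lining (2.78%), and Eno3 in mural cells (1.93%). In barcodes of no class, 7 of 10 members were higher (1.34% and 0.587%), the same 7 genes by name as in the other classes together.

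Per barcode, rather than in CPM, the neurectomy level of Acta1 varied little with depth. In barcodes grouped by depth, with bins starting at 500, 1000, 2000 and 5000 UMIs, it was 0.137, 0.151, 0.161 and 0.180 UMIs per barcode, while its CPM went from 170 through 109 and 54.3 to 10.8. Sham barcodes of the same depths held 0.00734, 0.00989, 0.0150 and 0.0440 Acta1 UMIs per barcode, and 8.85, 7.26, 5.08 and 2.32 CPM. Tpm1 per barcode went from 0.266 to 3.75 after neurectomy and from 0.197 to 4.68 in the sham library over the same depths. In the neurectomy library Acta1 per barcode thus varied less with depth than Tpm1, while in the sham library both grew with depth. Acta1 was higher after neurectomy in each bin, with a narrower gap in the deepest. Of the 233 sham Acta1 UMIs in that bin, however, 97 lay in 1 barcode of no class, so the size of the gap there leans on 1 barcode. After neurectomy the most Acta1 UMIs in 1 barcode of no class were 59.

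**Figure D4:**
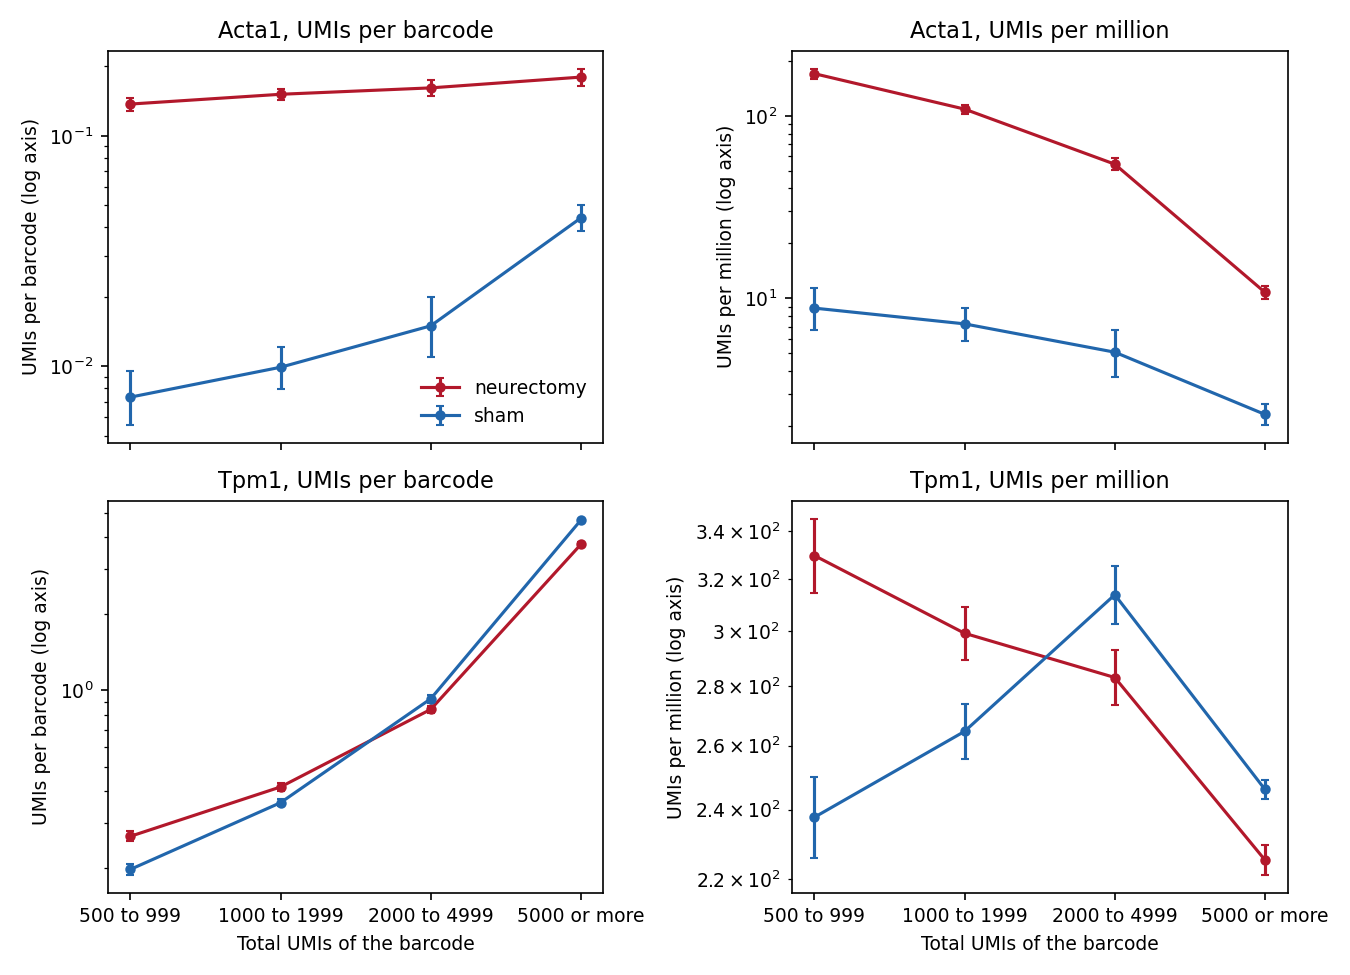
Acta1 (top) and Tpm1 (bottom) in barcodes of other classes and of no class together, as UMIs per barcode (left) and CPM (right, both log axes), by total UMIs of the barcode (x axis), in the neurectomy and sham libraries, with exact 95% Poisson intervals. Acta1 per barcode stays between 0.137 and 0.180 after neurectomy, while Tpm1 per barcode climbs from 0.266 to 3.75.

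Over classes, Acta1 per barcode ran from 0.0868 in the synovial lining through 0.119 to 0.201 in lymphatic endothelium after neurectomy, and from 0 through 0.00851 to 0.0301 in the sham library. After each barcode was thinned to 1000 UMIs, which left out 2047 of 7921 neurectomy and 1898 of 7821 sham barcodes, the share of barcodes with an Acta1 UMI ran from 1.56 to 7.04% over the neurectomy classes and from 0 to 1.09% over the sham classes. Unthinned, these shares were 8.47 to 14.0% and 0 to 2.45%. Tenocytes had the lowest and lymphatic endothelium the highest neurectomy share when thinned. Few barcodes carried much: 3 of 8051 neurectomy barcodes of other classes held 10 or more Acta1 UMIs, and 0 of 7995 sham ones.

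Each member's UMIs relative to Acta1 in other classes were set against the same ratio in the pooled muscle barcodes of both libraries. Of the 3996 Acta1 UMIs in that pool, 3513 came from the neurectomy library, so the reference was mostly the neurectomy muscle profile. Of 29 members with at least 10 UMIs after neurectomy, 16 were within 3-fold of the muscle proportion. They included Tnnc2 (1.15 times), Ckm (1.15), Myl1 (1.15), Mylpf (1.27), Pvalb (1.30), Tnnt3 (1.46) and Myh4 (1.94). The other 13 exceeded it: Eno3, Ttn, Ldb3, Ryr1, Neb, Tpm1, Mb, Mybpc1, Casq1, Pygm, Actn2, Tpm2 and Casq2. In the sham library, 4 of 27 were within 3-fold and 23 exceeded it. The median over members was 1.94 after neurectomy and 32.4 in the sham library. Both libraries were set against the same muscle proportion, so the Acta1 level of a library enters each of its values. A gene sits higher in the sham library whenever its neurectomy-to-sham ratio in other classes is below the 18.2 of Acta1. The gap between the medians is therefore not independent of the Acta1 difference.

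**Figure D5:**
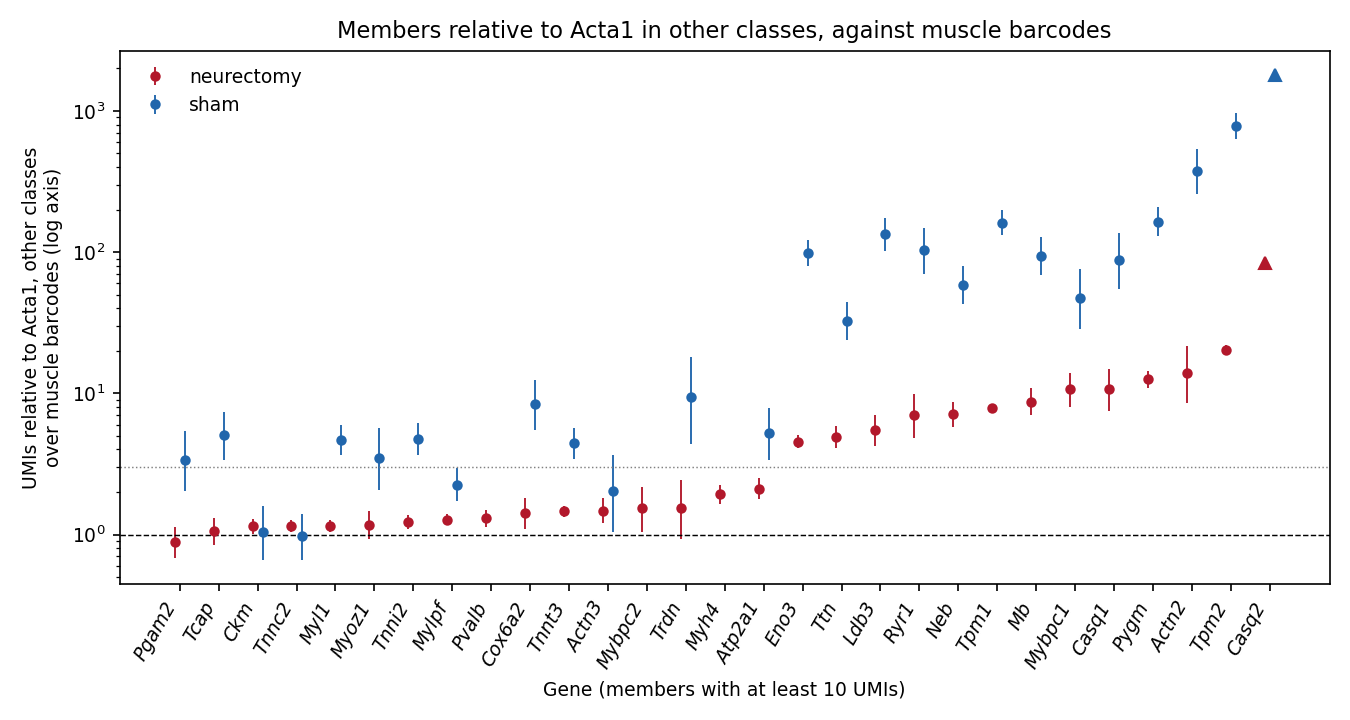
UMIs of each member relative to Acta1 in other classes, divided by the same ratio in the muscle barcodes of both libraries (y axis, log scale), for members with at least 10 UMIs (x axis), in each library; bars are exact 95% conditional intervals, triangles mark Casq2, which had 0 muscle UMIs and is set against 3, and the dotted line is 3-fold. The 16 genes on the left lie within 3-fold of 1 in the neurectomy library, and the sham values lie above those of the neurectomy library for every gene drawn in both except Ckm and Tnnc2. Of the genes drawn in both, only these had neurectomy-to-sham ratios (20.0 and 21.5) above the 18.2 of Acta1, which fixes this order.

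By class, the neurectomy excess over the muscle proportion lay in particular places. Tpm1 was at least 3 times above it in 11 of 11 classes (highest in tenocytes, 46.9 times), Tpm2 in 10 (mural, 229), Pygm in 7 (tenocytes, 39.5), and Neb, Ttn and Mb in 6 each, with their highest values in tenocytes (23.3 and 11.2) and the synovial lining (44.4). Eno3 was above it in 4 classes, and in tenocytes by 46.6 times. Ldb3 was above it in 2 classes (mural, 56.1), Casq2 in 2 (mural, at least 1027 against 3 muscle counts), Atp2a1 in 2, and Ryr1 (macrophages, 16.6) and Myh4 (Pi16 fibroblasts, 3.29) in 1 each. Casq2 in mural cells had 43.5 and 42.3 CPM, and Ldb3 there had 34.1 and 47.7 CPM, with ratios of 1.03 (0.684 to 1.52) and 0.716 (0.458 to 1.09).

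In the sham library only 5 classes held the 10 Acta1 UMIs needed. Tpm1, Tpm2, Eno3 and Pygm were at least 3 times above the muscle proportion in all 5, and Mb in 3. Tnnt3 exceeded it in 2 (Pi16 fibroblasts, 9.75 times), Myl1 in 2 (blood endothelium, 4.58) and Tnni2 in macrophages (8.29). Mylpf (5.57) and Casq2 exceeded it in blood endothelium, and Myoz1, Atp2a1, Ryr1 and Cox6a2 in macrophages. Across the 34 genes, Spearman's rho between the levels in a class and in the muscle barcodes ran from 0.70 in mural cells to 0.93 in macrophages after neurectomy, and from 0.11 in Schwann cells to 0.59 in erythroid barcodes in the sham library. These describe genes within a library that share depth, and lower counts by themselves lower rho.

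Muscle barcodes held 25.5% of all member UMIs of the neurectomy library and 4.73% of those of the sham library. Of the Acta1 UMIs of the neurectomy library, 41.3% lay in its 29 muscle barcodes, 13.4% in other classes, 26.0% in barcodes of no class and 19.0% in the 2962 barcodes under 500 genes. In the sham library these shares were 45.5%, 9.23%, 31.0% and 8.19%. Barcodes with at least 5% of UMIs from the members numbered 74 after neurectomy, of which 29 were muscle barcodes, 9 had no class and 36 were under the gene minimum, and 7 in the sham library. Without the gene minimum, 56 and 7 barcodes were assigned to muscle.

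Levels of other classes' markers outside their own class give the background for RNA found in foreign barcodes. For the classes compared these ratios ran from 0.744 (tenocyte markers, 2802 against 3767 CPM) to 1.44 (macrophage markers, 135 against 94.2 CPM). Among the rarer classes, markers of satellite cells, the stem cells of muscle, had a ratio of 2.58 (1.43 to 4.74, 33 and 20 UMIs), adipocyte markers 2.85 (1.87 to 4.41, 66 and 36 UMIs) and neutrophil markers 0.315 (0.184 to 0.513, 20 and 99 UMIs). Acta1 had a ratio of 18.2. The part of these other cells in the members' levels was not tested. The 32 muscle marker genes had 72.8 and 71.6 CPM in other classes (1.02, 0.964 to 1.07), of which Cmya5 gave the most (19.6 and 19.9 CPM). Genes within this sum differed in direction, so a level sum does not mean that each was level. Apobec2 had 3.09 against 1.15 CPM and Xirp2 1.56 against 0.383, while Myom1 had 7.97 against 11.7 and Xirp1 0.664 against 1.85. Satellite cells were gated in 26 and 15 barcodes.

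Genes were ranked by their lowest neurectomy-to-sham ratio over the 11 classes, with a sham level of 0 set at 3 counts. Acta1 (8.29), Ckm (6.07), Mylpf (4.43), Tnnc2 (4.39), Tnnt3 (2.42) and Tnni2 (2.08) took the first 6 ranks, and 8 members were among the first 30. The non-members most like them over the 2 libraries and 11 classes were Gm8797 (1.87), Tmem178b (1.70), Cbr2 (1.57), Cdk8 (1.52) and Rad51b (1.46). Of these, Gm8797, Tmem178b, Cbr2 and Rad51b had 0 UMIs in the muscle barcodes, unlike the members.

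The DRG library, from a tissue with no skeletal muscle fibres of its own, gave 3.11 CPM of Acta1 (736 UMIs) and 1.99 CPM of Mylpf over the barcodes that passed the same filters. It gave 0.122 CPM of Tnnc2, 0.275 of Ckm and 1 UMI of Myh4. In the sham tendon library Acta1 had 2.09 CPM in other classes and 4.02 in barcodes of no class. Of the 329 UMIs behind the second value, 97 lay in 1 barcode, so its place against the ganglia leans on that barcode. In the neurectomy library these levels were 37.9 and 46.4 CPM. Kept barcodes of the ganglia were deeper, with a median of 3523.5 UMIs against 1347.5 (neurectomy) and 1338 (sham), and depth was not matched here. Tpm1 had 201 CPM, Tpm2 25.8 and Eno3 10.0 in ganglia. Pvalb, which also marks proprioceptive neurons, had 6.96 CPM, in 1.56% of barcodes.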

How the data were processed

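Single-cell libraries of 2 Achilles tendon groups and 1 of ganglia were read as deposited. The deposited tables hold raw UMI counts, whole numbers without normalization; per the file headers the authors used Cell Ranger 8.0.1; the annotation release is not given in the sources used here. A barcode was kept from 500 genes upward if mitochondrial UMIs were 15% or less. A barcode was gated to 1 of 19 classes or muscle if it held at least 2 UMIs from at least 2 markers, its marker UMIs were at least 2 times those expected at its depth, and this enrichment was at least 1.5 times that of the next class. Barcodes that led for no class stayed ungated. No doublet caller was run, so doublets may remain. CPM came from UMIs summed over the barcodes of a class in 1 library, and the 11 classes holding 100 or more barcodes in both were compared. A gene entered with at least 50 UMIs and 10 CPM in the higher library, and a fold of 2 was the limit for calling a difference. A level of 0 was set against 3 counts.

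Intervals (95%) are exact Poisson for counts, exact Clopper-Pearson for shares, and conditional binomial for ratios. The ratio function was tested on simulated data. Values by class were given for the 10 members with the most UMIs in other classes, and members at least 3 times above the muscle ratio to Acta1 in a class were named; the non-members most alike were those with the highest lowest ratio over the classes. The named members and lists were chosen with earlier results of these data known. Alternatives changed the gate, the filters, the weighting of barcodes and the genes summed. Python 3.11.15, numpy 2.4.6, scipy 1.17.1 and pandas 2.3.3 were used.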

Additional observations from a re-analysis of the deposited data

How the results depend on the processing

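No paired analysis was possible because each group was 1 library, and for the same reason no replicate could be left out. The neurectomy-to-sham ratio of the muscle barcode share ran from 3.68 to 10.5 over 7 alternatives. With at least 1000 genes 5 and 0 muscle barcodes remained, and with at least 5000 UMIs 1 and 0, so neither this ratio nor the count in muscle barcodes could be computed. The summed member ratio in other classes, 1.27, reversed to 0.878 with at least 5000 UMIs. It was 1.06 with at least 1000 genes, 1.09 with a lead of 3 times, 1.80 as a mean of each barcode's own CPM, 1.77 without barcodes holding a muscle marker UMI, 1.24 without the 1% of barcodes with the most member UMIs, and 1.36 with sham class shares. Settings chosen after seeing the data gave 3.89 without Tpm1 and Tpm2 and 1.39 with ungated barcodes. The count of members at least 2-fold higher in other classes, 7 of 10, was 2 of 5 with at least 5000 UMIs and 21 of 31 with at least 10 UMIs and no CPM minimum. The count at least 2-fold apart in muscle barcodes, 2 of 22, was 4 of 22 when the gate used the members and 6 of 30 with at least 10 UMIs and no CPM minimum. The Acta1 ratio in other classes ran from 9.24 to 20.1 over 14 alternatives. Tpm1 reversed to 1.11 without barcodes holding a muscle marker UMI and to 1.01 with sham class shares, and Eno3 to 1.38 with a lead of 3 times. The Tpm2 ratio ran from 0.378 to 0.697 over 14 alternatives, so it stayed below 1 but was not always at least 2-fold lower. Fewer genes and barcodes remain at higher minimums by construction; the cause of the other shifts was not tested. Of the 34 members, 7 had 3 or fewer UMIs in the 5 sham muscle barcodes, which limits their ratios there.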
